A study of Mus musculus with 12 samples.

Results

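Kruppel-like factors (KLF) are transcription factors whose zinc fingers bind GC-rich and CACCC-containing DNA. Outside the zinc fingers the proteins differ: one branch of the family (KLF9, KLF10, KLF11, KLF13, KLF14 and KLF16) binds the corepressor SIN3A, another (KLF3, KLF8 and KLF12) binds the corepressor CTBP, and a further one (KLF2, KLF4, KLF5, KLF6 and KLF7) holds activation domains. In the kidney, KLF10 is known as an early gene of transforming growth factor-β (TGF-β) signaling, KLF6 as an injury-induced factor, KLF15 as a glucocorticoid target of podocytes and mesangial cells, and KLF2 and KLF4 as factors of endothelium and smooth muscle. The KLF genes described here are the 10 genes Klf2, Klf3, Klf4, Klf5, Klf6, Klf7, Klf9, Klf10, Klf13 and Klf15, taken by symbol from 25230 genes counted in each library. Counting listed 17 KLF symbols in all, and the other 7 are described after them.

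RNA-seq was performed on mouse mesangial cells (MMC), the contractile cells that hold the glomerular capillaries, grown from animals that were either WT or of the lncMGC-KO5 line. lncMGC is the long non-coding host transcript of a microRNA megacluster, and KO5 is a CRISPR-Cas9 line in which a short stretch at its transcription start site is deleted. Cells of each genotype were serum-depleted (SD) for the control or received 10 ng/ml TGF-β for 24 h. WT-SD, KO-SD, WT-TGF and KO-TGF are thus the 4 groups, with 3 libraries each. A single KO line was sequenced and the labels do not say whether libraries of a group came from separate cultures or mice, so p-values measure only the spread between these libraries, which may be technical, and the genotype cannot be told apart from the culture it came from. lncMGC has no row of its own among the genes used here. Genes downstream of the deleted stretch do not by themselves show a deletion of this size, so WT and KO are used as labelled. By RT-qPCR, the paper reported no lncMGC expression in KO5 MMC and lower levels of Mirg, a non-coding RNA that overlaps lncMGC.

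Depth was even, between 19898050 and 22827706 counts on genes per library. Within groups, libraries differed by 1.35 to 5.05 times the sampling variance, with KO-SD replicate 1 standing most apart. Of 8 mesangial markers, Thy1 had at most 3 counts in each library, and the summed level of the 8 was 2525 to 2668 CPM (counts scaled to library size) in WT-SD, 5662 to 5828 in WT-TGF, 4867 to 5032 in KO-SD and 10709 to 10796 in KO-TGF. Most of this sum is Acta2 and Tagln, with means of 6288 and 3915 CPM in KO-TGF. Des went the other way, with a mean of 7.67 CPM in WT-SD against 0.529 CPM in KO-SD. Of the 6 mesangial markers tested, 5 were higher and 1 lower in KO under SD, and 4 were higher and 2 lower with TGF-β. The podocyte gene Nphs1 and the endothelial genes Cdh5 and Emcn had at most 3 counts in each of the 12 libraries. Other markers of these cell types were present, with WT-SD means of 246.5 CPM for Synpo, 98.9 for Wt1, 97.9 for Podxl and 32.6 for endothelial Ehd3.

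Levels of different KLF genes were compared per exon length, as RPKM (counts scaled to library size and exon length). Klf6 and Klf4 were the most abundant KLF genes in each of the 4 groups. In WT-SD they stood at 39.1 ± 1.0 and 38.4 ± 0.29 RPKM (SD, n = 3), and their libraries overlapped. In KO-SD Klf4 (51.2 ± 0.80 RPKM) was above Klf6 (42.1 ± 1.8 RPKM), while in WT-TGF Klf6 (50.3 ± 1.3 RPKM) was above Klf4 (29.4 ± 0.38 RPKM) and Klf10 (25.7 ± 0.27 RPKM). The order in KO-TGF began in the same way, with 62.4 ± 1.0 RPKM for Klf6, 32.3 ± 0.94 for Klf4 and 24.0 ± 0.44 for Klf10.

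Klf9, Klf10, Klf3 and Klf13 lay between 8.61 RPKM (Klf13) and 16.02 RPKM (Klf9) in WT-SD, where libraries of Klf3 and Klf13 overlapped. Klf7 and Klf2 followed at 3.70 ± 0.15 and 2.59 ± 0.28 RPKM. At the low end were Klf15 and Klf5, with 0.727 ± 0.14 and 0.548 ± 0.070 RPKM and overlapping libraries. These RPKM use the union of annotated exons, which is 11243 bases for Klf3 against 5221 bases for its longest transcript. With the longest transcript, an alternative added after the data were seen, Klf3 ranked 3 in both SD groups (19.1 RPKM in WT-SD) and Klf10 ranked 2 in both TGF-β groups (35.2 RPKM in WT-TGF).

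**Figure D1:**
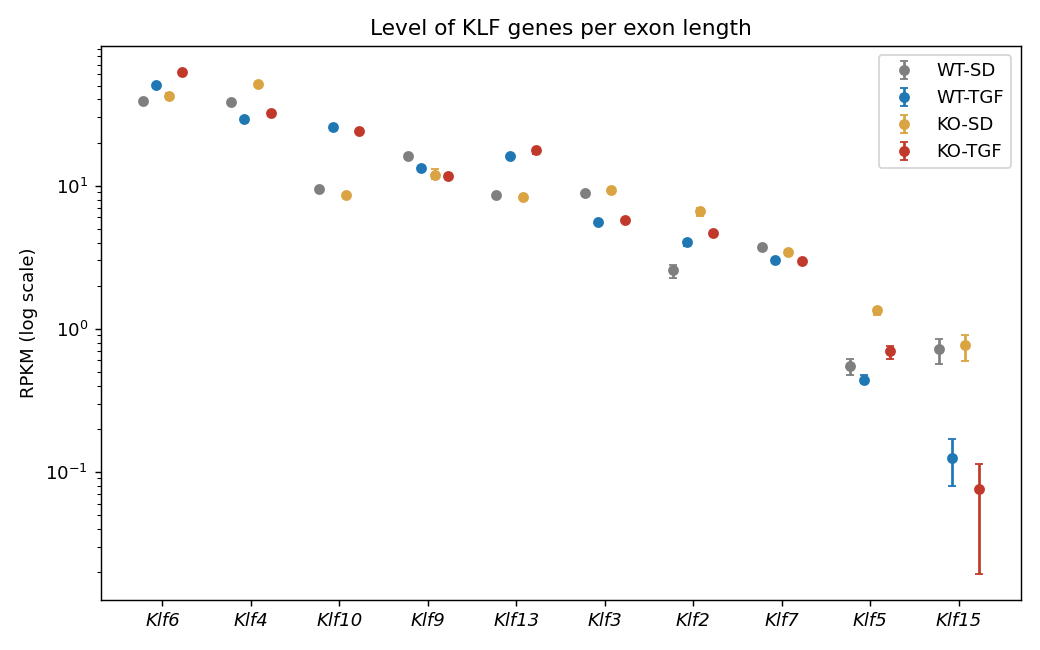
Mean RPKM of each KLF gene (vertical axis, log scale) in the 4 groups, with bars from the lowest to the highest of 3 libraries. Klf6 and Klf4 lie highest in each group, and Klf15 falls from 0.727 RPKM in WT-SD to 0.124 in WT-TGF.

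The genes lie on 10 different chromosomes (GRCm38.p6, the assembly of mm10), so none shares a promoter with another. Of the 10, 8 have a window before the transcription start in the RefSeq promoter table, and Klf5 and Klf10 have none there. The 250 bases before the start had a GC content of 59.2% to 78.4% in these 8 windows, where the median of 32851 windows was 52.4%. Windows of the members whose counts moved most follow, read along the gene's strand and leaving out bases in a GENCODE vM21 exon, to let the CACCC and GGGCGG boxes that KLF and Sp proteins bind be seen (in capitals, on either strand, so that GGGTG and CCGCCC are marked too). They are chr8:72318812-72319032 (+) for Klf2, chr7:63938916-63939165 (-) for Klf13 and chr6:90462326-90462575 (+) for Klf15, the last of which precedes a start inside the span of the gene.
Klf2: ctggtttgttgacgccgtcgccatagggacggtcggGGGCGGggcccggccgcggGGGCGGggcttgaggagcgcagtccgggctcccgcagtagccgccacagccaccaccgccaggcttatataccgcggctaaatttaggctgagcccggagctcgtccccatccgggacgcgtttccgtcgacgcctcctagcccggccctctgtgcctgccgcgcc
Klf13: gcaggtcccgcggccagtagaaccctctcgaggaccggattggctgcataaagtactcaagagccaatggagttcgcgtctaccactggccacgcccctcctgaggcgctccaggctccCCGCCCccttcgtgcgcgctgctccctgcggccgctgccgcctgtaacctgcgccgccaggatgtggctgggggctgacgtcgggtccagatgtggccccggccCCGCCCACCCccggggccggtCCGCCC
Klf15: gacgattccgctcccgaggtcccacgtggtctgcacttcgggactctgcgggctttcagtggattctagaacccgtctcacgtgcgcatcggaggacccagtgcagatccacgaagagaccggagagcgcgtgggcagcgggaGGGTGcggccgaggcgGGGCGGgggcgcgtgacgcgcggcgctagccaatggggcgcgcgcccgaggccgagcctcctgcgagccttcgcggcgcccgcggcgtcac

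The printed Klf2 run holds 2 GGGCGG boxes. The Klf13 window holds 3 GGGCGG boxes and 1 CACCC box, of which a neighboring pair shares a base, and the Klf15 window holds 1 of each. Over the 8 windows of 250 bases, GGGCGG was found in 7 and CACCC in 6, against 32.7% and 52% of all 32851 windows. The Smad box CAGAC was found in 2 of the 8 (Klf3 and Klf15) against 42.2% of all windows. Partial glucocorticoid receptor sites were rarer, with GGTACA in 1 (Klf6) against 6.11% and AGAACA in 0 against 16.1%. Such matches describe the letters of these windows and no binding.

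To see which KLF genes respond to TGF-β in WT MMC, WT-TGF was compared with WT-SD. Of the SIN3A-binding factors among the members, Klf10 and Klf13 rose and Klf9 fell. Klf6 and Klf2 rose as well, while Klf3, Klf4 and Klf7 fell. The test covered the 11528 genes that exceeded RPKM 1 in any library, by quasi-likelihood in edgeR with p-values adjusted by Benjamini-Hochberg, and a gene was called at FDR <5%. The RPKM limit was passed by 9 of the 10 members, Klf5 only through its KO-SD libraries, and Klf15 was taken from an unfiltered fit of the 18565 genes with counts. Of the 9, 4 rose and 4 fell in WT, where 36% of all genes tested rose and 36.4% fell, so the number called is near that of all genes. Klf10 alone rose by more than 2-fold, which 4.14% of all genes did.

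In KO MMC, 3 of the 9 rose and 5 fell with TGF-β, against 34.9% and 39.1% of all genes. The fall of Klf5 adds nothing to this count, since the gene was tested only because it was high in KO-SD. Rises of more than 2-fold were seen for Klf10 and Klf13, against 4.37% of all genes. The median log2 fold change of all genes was close to 0 in both responses (-0.005 in WT and -0.025 in KO). Scaling by library size alone moved it to -0.16 and -0.23, a shift that applies to each gene below, and under which each called KLF response kept its direction.

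Klf10, the TGF-β-inducible early gene and a repressor of Smad7 transcription, had the largest rise. Its level was 39.6, 39.3 and 40.2 CPM in WT-SD and 108, 106 and 108 CPM in WT-TGF. In KO it was 36.1, 36.6 and 34.9 CPM under SD and 98.2, 101 and 102 CPM with TGF-β. Each TGF-β library was thus above each SD library, and those of KO lay slightly below those of WT under both conditions. The log2 fold change with TGF-β was 1.43 ± 0.036 (standard error) in WT (2.7-fold, adjusted p = 4.98e-25) and 1.48 ± 0.038 in KO (2.8-fold, adjusted p = 4.67e-25). The test of the difference between both responses gave 0.05 ± 0.053 (adjusted p = 0.551).

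Klf13, a relative of Klf9 best known as an activator of Ccl5 in T lymphocytes, had 63.8, 66.4 and 64.4 CPM in WT-SD and 121, 123 and 121 CPM in WT-TGF. In KO-SD it had 60.6, 63.8 and 65.1 CPM, overlapping WT-SD, and in KO-TGF 126, 135 and 137 CPM, above each WT-TGF library. It rose by 0.91 ± 0.037 (log2) in WT (1.88-fold, adjusted p = 7.69e-20) and by 1.07 ± 0.037 in KO (2.1-fold, adjusted p = 1.15e-21). The response in KO was larger by 0.17 ± 0.052 (adjusted p = 0.0183), a call that ended without WT-SD replicate 2 (0.14, adjusted p = 0.0674) or with library size alone (0.12, adjusted p = 0.0888).

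Klf9, a glucocorticoid- and thyroid hormone-induced factor, moved the other way. In WT it went from 80.6, 77.1 and 73.8 CPM under SD to 63.7, 64.3 and 62.7 CPM with TGF-β, a log2 fold change of -0.28 ± 0.045 (adjusted p = 2.19e-06). In KO-SD it was already low, with 62.9, 55.3 and 53.7 CPM, and in KO-TGF it had 57.4, 56.1 and 54.9 CPM, inside the range of KO-SD. The KO response was -0.03 ± 0.048 (adjusted p = 0.575), and the difference from the WT response was 0.25 ± 0.066 (adjusted p = 0.00494). KO-SD replicate 1 gave the highest of these KO values, and without it the KO response was 0.04 (adjusted p = 0.396). With library size alone the KO response was -0.23 (adjusted p = 5.81e-05).

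**Figure D2:**
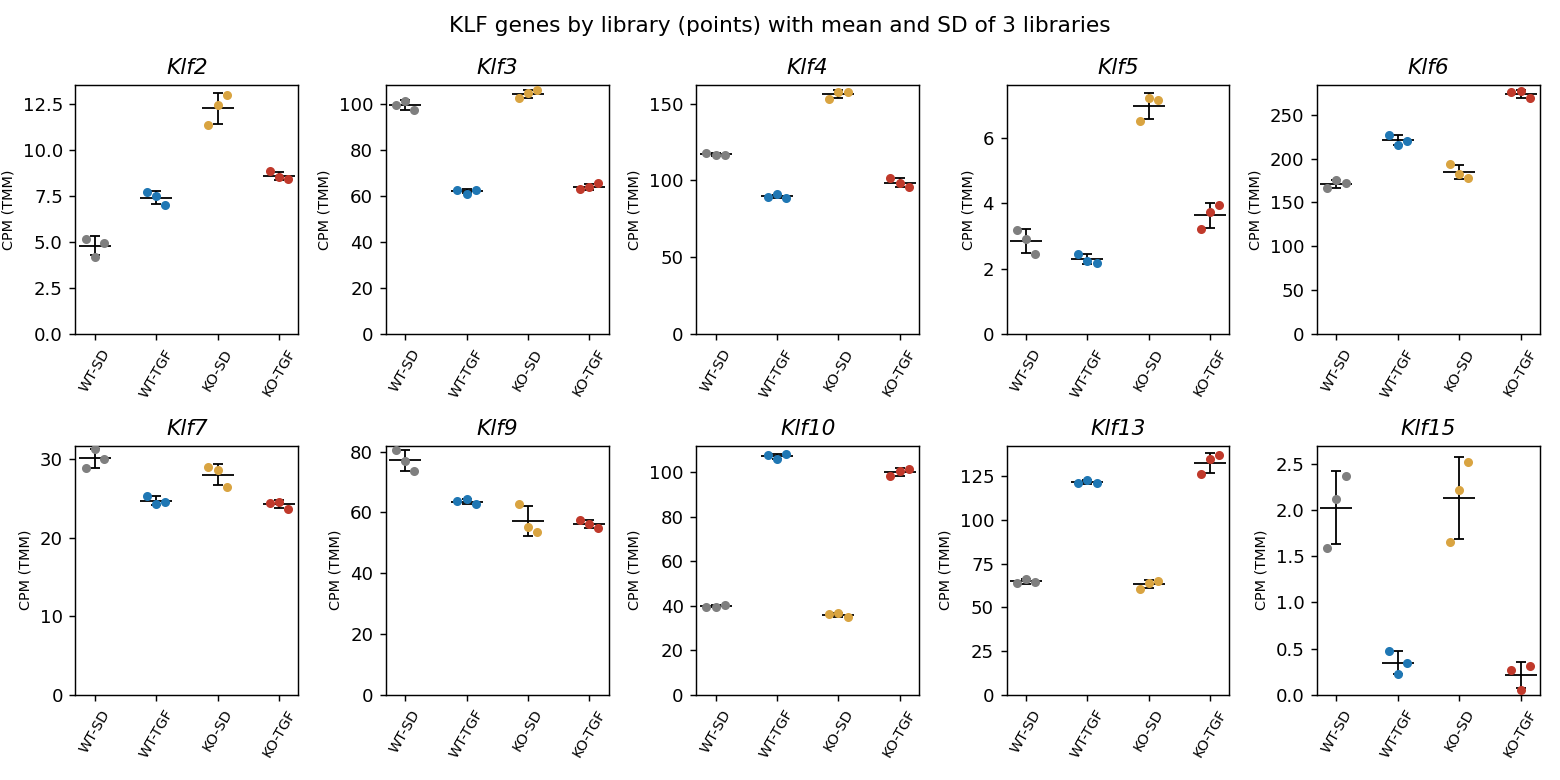
TMM-scaled CPM (vertical axes, from 0) of the 10 KLF genes in each of the 12 libraries (points), with the mean and SD of 3 libraries per group (black). Klf10 and Klf13 separate by treatment, with 39.3 to 40.2 against 106 to 108 CPM for Klf10 in WT, while Klf2 and Klf5 are highest in KO-SD.

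Among factors with activation domains, Klf6 rose in both genotypes. Its level was 167, 175 and 172 CPM in WT-SD and 227, 216 and 220 CPM in WT-TGF. In KO it was 193, 183 and 178 CPM under SD and 276, 277 and 269 CPM with TGF-β. Every KO library lay above every WT library of the same treatment, and KO-TGF was highest. The log2 fold change with TGF-β was 0.37 ± 0.030 in WT (adjusted p = 4.4e-12) and 0.57 ± 0.030 in KO (adjusted p = 6.59e-17), and the KO response was larger by 0.20 ± 0.043 (adjusted p = 0.000488).

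Klf4, a factor of smooth muscle phenotype switching and of pluripotency, fell. It had 118, 116 and 117 CPM in WT-SD against 89.3, 90.9 and 88.6 CPM in WT-TGF. In KO-SD it reached 153, 158 and 158 CPM, and in KO-TGF 101, 98.5 and 95.6 CPM. None of the 4 groups overlapped another. The fall was -0.38 ± 0.031 in WT (adjusted p = 2.71e-12) and -0.67 ± 0.031 in KO (adjusted p = 2.04e-18), deeper in KO by -0.28 ± 0.044 (adjusted p = 9.28e-06).

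Klf2, a shear stress-induced factor of endothelium and of T-cell quiescence, changed in opposite directions in the genotypes. It had 5.18, 4.21 and 4.96 CPM in WT-SD and 7.71, 7.49 and 7.01 CPM in WT-TGF, a rise of 0.63 ± 0.11 (log2, 1.55-fold, adjusted p = 4.18e-06). In KO it had 11.3, 12.4 and 13.0 CPM under SD and 8.84, 8.56 and 8.41 CPM with TGF-β, a fall of -0.51 ± 0.088 (1.43-fold lower, adjusted p = 6.4e-06). No library of one group overlapped another group, and the TGF-β groups lay between both SD groups. The difference between the responses was -1.14 ± 0.14 (adjusted p = 1.17e-07). Counts behind these levels were modest, 97 to 114 in WT-SD and 247 to 283 in KO-SD.

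Klf5, a factor of proliferating epithelium and of remodeling smooth muscle, had 3.18, 2.91 and 2.46 CPM in WT-SD and 2.46, 2.23 and 2.17 CPM in WT-TGF. The groups overlapped at 2.46 CPM, and the log2 fold change was -0.32 ± 0.16 (adjusted p = 0.0749). Without WT-SD replicate 3 it was -0.41 (adjusted p = 0.0356), and with library size alone it was -0.47 (adjusted p = 0.00851).

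In KO-SD, Klf5 had 6.52, 7.24 and 7.16 CPM and in KO-TGF 3.21, 3.74 and 3.94 CPM, with no overlap. The fall in KO was -0.94 ± 0.12 (1.92-fold lower, adjusted p = 6.73e-08), larger than in WT by -0.62 ± 0.20 (adjusted p = 0.0232). That difference passed the threshold by little: DESeq2 gave an adjusted p of 0.0936, and leaving out WT-SD replicate 3, WT-TGF replicate 1 or KO-TGF replicate 1 gave 0.07, 0.0697 and 0.0906. Klf7, known from neuronal development, fell by a small amount, from 28.9 to 31.4 CPM in WT-SD to 24.3 to 25.3 CPM in WT-TGF (-0.29 ± 0.052, adjusted p = 1.55e-05). Its range in KO was 26.5 to 29.0 CPM under SD and 23.7 to 24.6 CPM with TGF-β (-0.21 ± 0.055, adjusted p = 0.00105).

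The CTBP-binding repressor Klf3 fell to a like level in both genotypes. It had 99.9, 102 and 97.7 CPM in WT-SD and 62.8, 61.2 and 62.8 CPM in WT-TGF. In KO-SD it had 103, 105 and 106 CPM and in KO-TGF 63.0, 64.0 and 65.6 CPM. The log2 fold change was -0.68 ± 0.035 in WT (1.6-fold lower, adjusted p = 3.13e-17) and -0.70 ± 0.035 in KO (1.63-fold lower, adjusted p = 1.46e-17), and the test of their difference gave -0.02 ± 0.050 (adjusted p = 0.807).

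Klf15, a regulator of amino acid and glucose metabolism, was near the floor of detection after TGF-β. It had 35, 49 and 52 counts in WT-SD and 10, 5 and 7 in WT-TGF. In KO it had 36, 46 and 55 counts under SD and 5, 1 and 6 with TGF-β. SD and TGF-β libraries did not overlap in either genotype, and 3 counts, taken as the floor, correspond to 0.13 to 0.161 CPM. In the unfiltered fit, the log2 fold change was -2.51 ± 0.29 in WT (adjusted p = 3.41e-17) and -3.27 ± 0.34 in KO (adjusted p = 8.64e-22), where 25.8% and 28.5% of the 18565 genes fell at FDR <5%. Where genes needed CPM >1 in 3 libraries or more, the values were -2.52 (adjusted p = 1.22e-08) and -3.28 (adjusted p = 9.29e-10). The difference between the responses was -0.77 ± 0.55 (adjusted p = 0.43), an estimate that rests on these few counts.

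**Figure D3:**
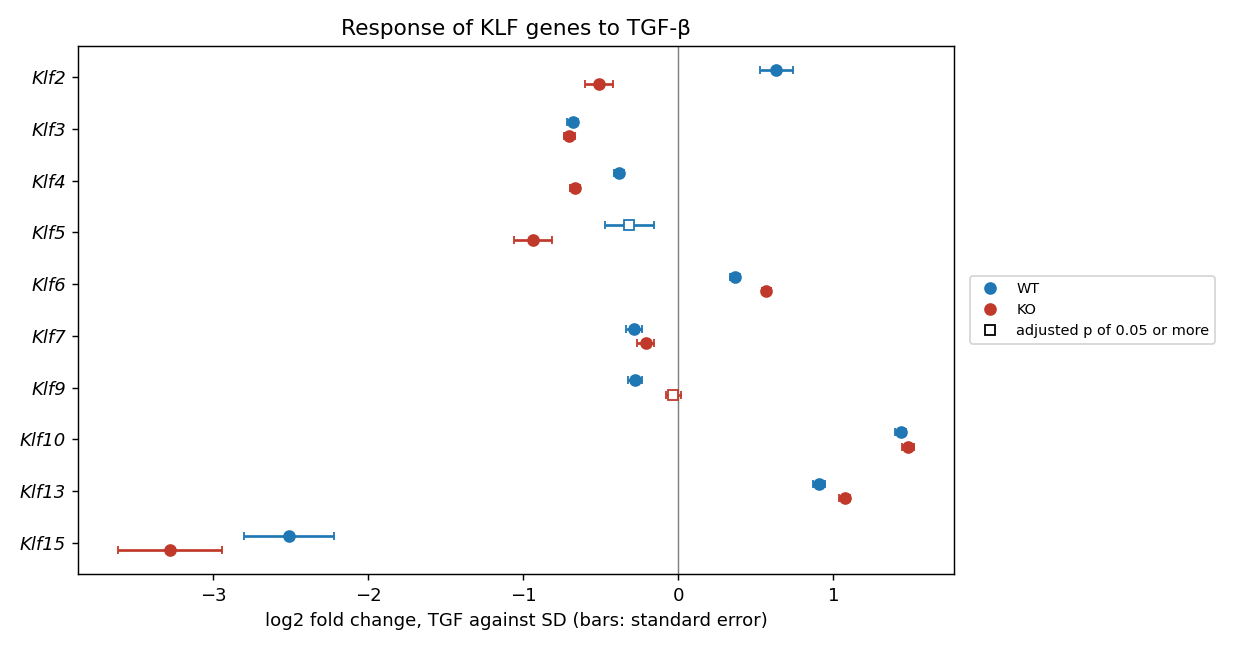
Log2 fold change of TGF-β against SD (horizontal axis) for each KLF gene in WT (blue) and KO (red), with bars of 1 standard error and open squares where the adjusted p was 0.05 or more. Klf2 lies on opposite sides of 0 (0.63 in WT and -0.51 in KO), and Klf10 overlaps within its errors (1.43 and 1.48).

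To see how the KO cells differ at baseline, KO-SD was compared with WT-SD. Klf2, Klf5, Klf4 and Klf6 were higher in KO-SD, and Klf9 and Klf10 were lower. These 4 and 2 of the 9 members tested stand against 30.9% of all genes higher and 25.2% lower. Klf2 (1.36 ± 0.096 on the log2 scale, 2.56-fold, adjusted p = 2.05e-13) and Klf5 (1.29 ± 0.13, 2.44-fold, adjusted p = 3.02e-10) were higher by more than 2-fold, which 3.19% of all genes were. Klf5 had passed the RPKM limit only where it was high, so its call adds nothing to the count of members.

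Klf4 was higher in KO-SD by 0.42 ± 0.030 (1.34-fold, adjusted p = 2.4e-13) and Klf6 by 0.11 ± 0.031 (1.08-fold, adjusted p = 0.00319). Klf9 was lower by -0.43 ± 0.045 (1.35-fold lower, adjusted p = 1.82e-09) and Klf10 by -0.15 ± 0.042 (1.11-fold lower, adjusted p = 0.00339). Klf3, Klf7 and Klf13 did not pass the threshold, with log2 values of 0.07, -0.10 and -0.04. Klf3 passed it without KO-SD replicate 1 (0.08, adjusted p = 0.0464), with no filter (adjusted p = 0.0246) and with the CPM filter (adjusted p = 0.0357), and had the opposite sign with library size alone (-0.01). Klf7 passed it when any one KO-TGF library was left out (-0.12, adjusted p from 0.0417 to 0.0422). With library size alone Klf6 was no longer called (0.03, adjusted p = 0.356), while Klf7 (-0.18, adjusted p = 0.00352) and Klf13 (-0.12, adjusted p = 0.0135) were called lower. Klf15 showed 0.10 ± 0.19 in the unfiltered fit (adjusted p = 0.74).

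After TGF-β the genotypes differed less in Klf2, Klf4, Klf5 and Klf9 than under SD, by the tests of the responses given above. In KO-TGF against WT-TGF, 4 members were higher (Klf5, Klf6, Klf4 and Klf13) and 2 lower (Klf9 and Klf10), against 27.2% and 27.8% of all genes. Klf5 was higher by 0.67 ± 0.16 (1.59-fold, adjusted p = 0.000567), Klf6 by 0.31 ± 0.030 (1.24-fold, adjusted p = 2.04e-10), Klf4 by 0.14 ± 0.032 (adjusted p = 0.000636) and Klf13 by 0.13 ± 0.035 (adjusted p = 0.00265). Klf9 was lower by -0.18 ± 0.048 (adjusted p = 0.00189) and Klf10 by -0.10 ± 0.033 (adjusted p = 0.0139).

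Some of these small differences depended on the scaling, the filter, the tool or 1 library. With library size alone, which moved the median of all genes from -0.004 to -0.125, Klf4 (0.015) and Klf13 (0.004) were not called and Klf3 turned from 0.05 to -0.08, not called by either. Klf10 lost its call with DESeq2 (-0.08, adjusted p = 0.0893), with no filter (-0.09, adjusted p = 0.0634) and without KO-TGF replicate 1 (-0.06, adjusted p = 0.158) or replicate 2 (-0.08, adjusted p = 0.0693). Klf2 was 0.21 ± 0.097 higher in KO-TGF (adjusted p = 0.0626), and DESeq2's size factors (0.23, adjusted p = 0.0453) and GC correction (0.24, adjusted p = 0.0309) took it past the threshold. Klf3, Klf7 and Klf15 had adjusted p of 0.308, 0.699 and 0.337, and library size alone took Klf7 past the threshold (-0.15, adjusted p = 0.0221).

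**Figure D4:**
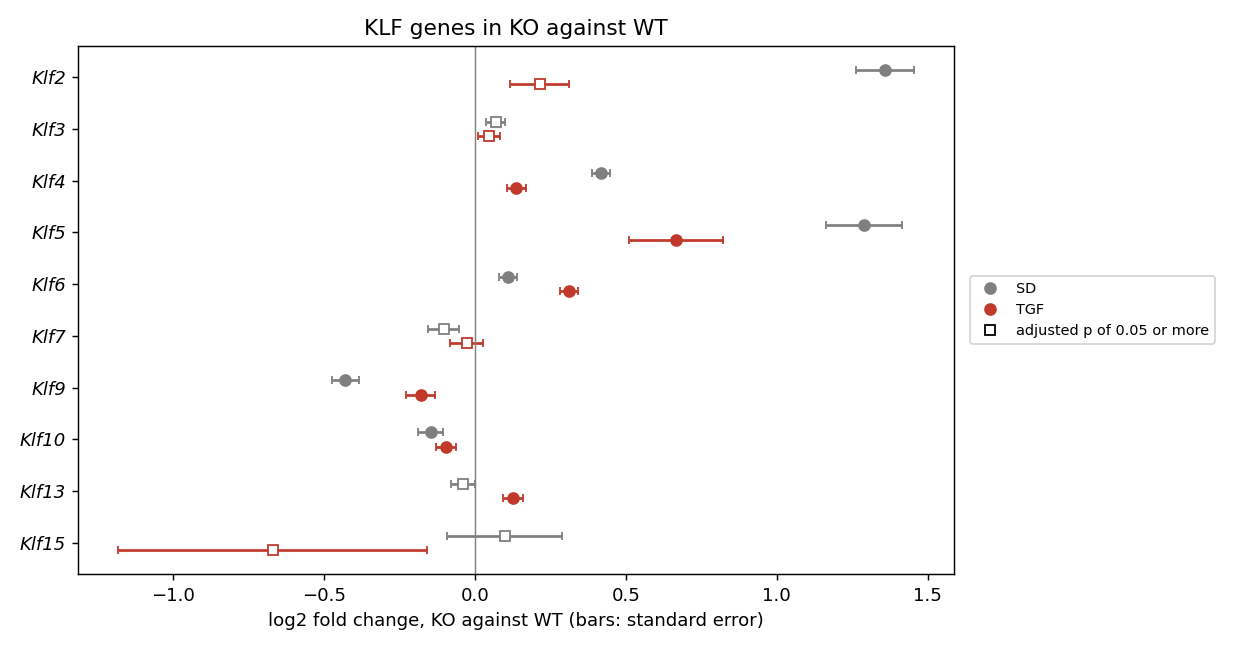
Log2 fold change of KO against WT (horizontal axis) for each KLF gene under SD (grey) and with TGF-β (red), with bars of 1 standard error and open squares where the adjusted p was 0.05 or more. Klf2 and Klf5 lie farthest to the right under SD (1.36 and 1.29), and Klf9 is lowest among the called genes (-0.43).

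In the interaction of genotype and treatment, which is the KO response minus the WT response, 3 of the 9 members had a higher value (Klf6, Klf9 and Klf13) and 3 a lower one (Klf2, Klf4 and Klf5). Of all genes tested 8.67% were higher and 16.6% lower, and Klf5, tested only through KO-SD, again adds nothing to the count. Klf2 was lower by more than 2-fold, which 2.39% of all genes were.

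Markers of other cell types moved with genotype too. The summed level of 8 macrophage markers, a lineage in which Klf2 and Klf4 are known to act, was 25.4 to 26.5 CPM in WT-SD, 15.3 to 18.6 in WT-TGF, 2.39 to 2.61 in KO-SD and 0.856 to 1.61 in KO-TGF. Of these 8 markers, 4 in KO-SD (Ptprc, Adgre1, C1qa and C1qb) and 6 in KO-TGF (also Lyz2 and Cd74) had at most 3 counts in each library. Of 7 endothelial markers summing to 33 to 33.5, 20.3 to 22.6, 17.3 to 18.5 and 9.25 to 10.9 CPM in the same order, Ehd3 made up nearly all (means of 32.6 CPM for WT and 17.1 CPM for KO under SD) and was the only one tested. Pecam1 had 1 to 2 counts in WT-SD and 3 to 4 in KO-SD, and Tek 0 to 3 and 4 to 5. Under SD, the macrophage sum and Ehd3 were thus lower in KO, while the few counts of Pecam1 and Tek were higher. The part of these cells in the Klf2 and Klf4 levels was not tested.

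For 8 markers of tubular epithelium, in which Klf5 is known, the sums were 67.9 to 74.8 CPM in WT-SD, 17.9 to 19.8 in WT-TGF, 14.4 to 15.8 in KO-SD and 6.89 to 7.39 in KO-TGF, and Slc34a1, Umod, Slc12a3 and Aqp2 had at most 3 counts in each library. Podxl, Wt1 and Synpo, markers of podocytes, a cell type known to use Klf15, were lower in KO than in WT under SD (log2 values of -1.58 ± 0.040, -1.97 ± 0.047 and -0.63 ± 0.029) and with TGF-β (-1.52 ± 0.044, -2.55 ± 0.059 and -0.86 ± 0.029). The part of these cell types in the KLF differences was not tested, and in bulk libraries fewer cells of a type and less RNA per cell cannot be told apart.

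Of the other 7 KLF genes, Klf11 and Klf16 passed the RPKM limit, and both belong to the SIN3A-binding branch. Klf11, a further TGF-β-inducible early gene, fell from 16.3 to 18.7 CPM in WT-SD to 12.8 to 14.2 CPM in WT-TGF (-0.40 ± 0.072, adjusted p = 1.14e-05) and fell in KO as well (-0.30 ± 0.070, adjusted p = 0.000321). Klf16 rose, with 25.5 to 26.9 CPM in WT-SD and 30.3 to 31.7 CPM in WT-TGF (0.24 ± 0.050, adjusted p = 6.98e-05) and a log2 fold change of 0.31 ± 0.048 in KO (adjusted p = 9.76e-07). Both were higher in KO than in WT, Klf11 by 0.18 ± 0.067 and 0.28 ± 0.076 and Klf16 by 0.24 ± 0.050 and 0.30 ± 0.048 under SD and TGF-β.

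The CTBP-binding factors Klf8 and Klf12 were under the RPKM limit. Klf8 had 8 to 15 counts in WT-SD and 29 to 33 in WT-TGF, and 13 to 20 and 23 to 37 in KO. In the unfiltered fit it rose with TGF-β by 1.48 ± 0.29 in WT (adjusted p = 6.55e-07) and 1.18 ± 0.27 in KO (adjusted p = 2.52e-05). The WT value is near that of Klf10 but rests on few counts. Klf12 had 4.32 to 4.90 CPM in WT-SD and 5.39 to 5.78 CPM in WT-TGF, but 1.47 to 1.98 CPM in KO-SD and 1.77 to 2.25 CPM in KO-TGF. Its KO libraries thus lay below every WT library, with an unfiltered log2 value of -1.41 ± 0.16 under SD (adjusted p = 4.23e-17). Klf1, an erythroid factor, had at most 4 counts in a library, and Klf14 and Klf17 had 0, which with 3 counts as the limit allows up to 0.13 to 0.161 CPM.

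Genes around the KLF proteins were followed in lists, whose members are counted against the shares of all genes given above. Of 9 Sp genes, the nearest relatives, 5 were tested, of which 1 rose and 3 fell with TGF-β in WT. Sp6 rose by 0.89 ± 0.044, Sp4 fell by 0.73 ± 0.080 on the log2 scale and Sp1 by 0.20 ± 0.027. In KO, Sp6 was lower than in WT under SD (-1.66 ± 0.060) and with TGF-β (-1.73 ± 0.051), and Sp4 was lower under SD (-0.38 ± 0.076). The median of the 5 was -0.12 in the WT response.

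Of 11 corepressors and coactivators that KLF proteins bind, 3 rose and 5 fell with TGF-β in WT, with a median of -0.05. Fhl3, a partner of KLF3 and CTBP, rose by 1.79 ± 0.058 and was higher in KO than in WT by 0.58 ± 0.067 under SD and 0.53 ± 0.045 with TGF-β. Ctbp1 rose by 0.14 ± 0.029 and was higher in KO by 0.43 ± 0.028 under SD and 0.35 ± 0.028 with TGF-β. Sin3a and the acetyltransferase gene Kat2b fell in WT by 0.29 ± 0.042 and 0.20 ± 0.040 on the log2 scale. In KO-SD against WT-SD 5 of the 11 were higher and 1 lower, and in KO-TGF against WT-TGF 4 were higher and 2 lower.

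Upstream of KLF genes stand the MEK5-ERK5-MEF2 kinase pathway, which drives Klf2 and Klf4 transcription, and ubiquitin ligases such as FBXW7 and WWP1, which mark KLF2 and KLF5 proteins for degradation. Of 7 such genes tested, 3 rose and 4 fell with TGF-β in WT (median -0.15). Fbxw7 rose by 0.81 ± 0.041 and Mef2d by 0.25 ± 0.035. Wwp1 fell by 0.24 ± 0.040 and Mapk7, which encodes ERK5, by 0.22 ± 0.053. Mapk7 was higher in KO than in WT by 0.19 ± 0.051 under SD and 0.14 ± 0.055 with TGF-β. Other genes of that pathway did not share this: Map2k5, Mef2a and Mef2d did not pass the test under SD (adjusted p of 0.0559, 0.138 and 0.0647). With TGF-β, Mef2d was higher in KO (0.17 ± 0.035), Mef2a was lower (-0.17 ± 0.035) and Map2k5 did not pass the test (adjusted p = 0.887). Between genotypes, 2 of the 7 were higher and 1 lower in KO under SD, and 3 higher and 2 lower with TGF-β.

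Klf9 and Klf15 are known targets of the glucocorticoid receptor, and 10 of 11 genes of that list were tested. With TGF-β in WT, 3 rose and 5 fell (median -0.31), so its members split. Fkbp5 (2.82 ± 0.073) and Sgk1 (2.80 ± 0.042) rose most, and Mt1 (-1.15 ± 0.069) and Cebpd (-1.01 ± 0.040) fell most. In KO-SD against WT-SD Fkbp5 was higher (1.05 ± 0.092) and Cebpd (-0.53 ± 0.038) and Sgk1 (-0.46 ± 0.053) were lower. In KO-TGF against WT-TGF Mt2 (-2.05 ± 0.12) and Cebpd (-1.36 ± 0.055) were lowest of the called genes. Under SD 4 were higher and 3 lower in KO, and with TGF-β 3 were higher and 4 lower.

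Immediate-early genes, a class to which Klf10, Klf6, Klf2 and Klf4 are often counted, largely rose: 9 of 12 tested rose and 0 fell in WT (median 1.09), and 10 rose and 1 fell in KO (median 0.85). Egr2 (3.63 ± 0.051) and the AP-1 gene Fosl1 (2.27 ± 0.099) rose most in WT. Between genotypes the list was mixed, with 4 higher and 4 lower under SD and 4 higher and 6 lower with TGF-β. Egr3 was higher in KO-SD (0.85 ± 0.094) and Ier3 lower (-0.72 ± 0.045).

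Of 20 genes known as targets of KLF proteins, 15 were tested, and 7 rose and 7 fell with TGF-β in WT (median -0.005). Tgfb1, the ligand gene itself, rose by 2.25 ± 0.030 and the smooth muscle gene Tagln by 1.73 ± 0.021. S1pr1, a target of KLF2 in lymphocytes, changed by -2.29 ± 0.15, and Myh10 by -1.07 ± 0.023. Between genotypes 6 were higher and 6 lower under both conditions. Acta2 was higher in KO by 1.05 ± 0.024 under SD and 1.10 ± 0.023 with TGF-β, and Ccl5, the KLF13 target, was lower. Klf13 itself did not pass the test in KO-SD (-0.04) and was higher in KO-TGF (0.13), a call lost with library size alone. The part of KLF13, or of the cell types whose markers were lower in KO, in the Ccl5 level was not tested. Ccl5 had 38 to 58 counts in WT-SD against 4 to 6 in KO-SD, and 15 to 34 in WT-TGF against 0 to 2 in KO-TGF, where it was under the floor of 3 counts. Thbd, a KLF2 and KLF4 target of endothelium, was lower in KO by -0.82 ± 0.053 under SD and -1.31 ± 0.061 with TGF-β. S1pr1 went the other way, higher in KO by 0.49 ± 0.099 and 0.98 ± 0.19, at KO means of 11.4 and 3.24 CPM. Klf4 was higher in KO under both conditions, and Klf2 under SD only, as it did not pass the test with TGF-β. The part of KLF proteins in these differences was not tested.

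Across the 12 libraries, genes with the pattern most like a KLF gene were found by the root mean square difference of centered log2 CPM, given as a description. The 3 members with the largest spread and a mean of at least 5 CPM were compared, and the points share library and treatment. For Klf10 the nearest were Abtb2 (0.064), Skil (0.081) and Creb3l2 (0.094), against a median of 0.760 over all genes tested. Skil, a corepressor of SMAD proteins, had group means of 144 and 365 CPM in WT and 136 and 341 CPM in KO, under SD and TGF-β. For Klf13 the nearest were Unc5b (0.052), Furin (0.054) and Capg (0.063), against a median of 0.538. Furin, which encodes a proprotein convertase, had 118 and 240 CPM in WT and 116 and 246 CPM in KO.

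Klf2 had no gene as near, but fewer counts add sampling noise to such differences. In WT-SD it had 97 to 114 counts, against 870 to 907 for Klf10 and 1402 to 1530 for Klf13. Cks1b (0.169), Gfra1 (0.171) and Ccbe1 (0.187) came first, against a median of 0.530. Cks1b, a subunit of cyclin-dependent kinases, had 8.93 and 11.7 CPM in WT against 20.2 and 16.6 CPM in KO. Among the members themselves Klf7 and Klf9 (0.148) and Klf3 and Klf4 (0.156) were nearest to each other, and Klf10 and Klf13 differed by 0.253.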

How the data were processed

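RNA-seq libraries of MMC (12 libraries, 3 per group) were analysed from gene counts. The authors prepared libraries from mRNA, used TopHat for alignment to mm10 and HTSeq for counts per RefSeq gene. The values deposited by the authors are raw counts, without normalization or filter. Reads outside genes (10.3% to 15.4% of a library), with several alignments (11.2% to 11.7%) or on overlapping genes (0.225% to 0.274%) were left out. Counts of 19898050 to 22827706 per library limit the precision of low genes.

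Library sizes were scaled by TMM, which gives CPM. Exon lengths (GENCODE vM21) were found for 24720 of 25230 genes, and genes that exceeded RPKM 1 in any library were tested in edgeR 4.0.16 (R 4.3.3) by the quasi-likelihood test, in one fit of 12 libraries with one mean per group. Values after ± are SD for levels and standard errors for log2 fold changes. The fit was tested on simulated data. KLF members and gene lists were chosen with earlier results of these data known. Most genes named from a list were among its largest called changes in a direction, in the WT response or in KO against WT. Not every such gene was named, and not every comparison has genes of both directions named, so the names are no full ranking. Alternatives were library size alone, DESeq2 1.42.0 and its size factors, no filter, CPM >1 in at least 3 libraries, only the groups compared, a replicate block, GC correction and each library left out. Promoters came from the RefSeq table of GRCm38.p6. Protein sequences were not used here, and some podocyte markers are not reported here.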

Additional observations from a re-analysis of the deposited data

Results flagged for a closer look

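For 6 of the 9 KLF genes tested, the TGF-β response differed between KO and WT at FDR <5% by edgeR's interaction term. Values are KO minus WT on the log2 scale. Of all genes tested, 8.67% were higher and 16.6% lower, and Klf5, tested only through KO-SD, adds nothing to the count. The difference was -1.14 for Klf2, which rose in the 3 WT-TGF libraries and fell in the 3 KO-TGF libraries against SD. It was -0.28 for Klf4 and -0.62 for Klf5, whose falls were deeper in KO. For Klf6 (0.20) and Klf13 (0.17) the rise was larger in KO. Klf9 (0.25) fell in WT, and its KO response did not pass the test. The call was lost for Klf5 and Klf13 under the alternatives named beside them above.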

How the results depend on the processing

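Of the counts of members called, library size alone moved the number lower in KO-SD from 2 to 4 and the number higher in KO-TGF from 4 to 2. DESeq2 and the fit without a filter moved the number lower in KO-TGF from 2 to 1, and leaving out a library gave 1 to 2. Library size alone also moved by 1 the numbers lower in the WT response (to 5), the KO response (to 6) and KO-TGF (to 3), and those higher in KO-SD (to 3) and the interaction (to 2). Among other shifts of 1, DESeq2 moved the number lower in the interaction to 2. No filter and the CPM filter each moved the number higher in KO-SD to 5, and DESeq2's size factors moved the number higher in KO-TGF to 5. Reversed signs were seen only among values that did not pass the test. In KO-SD against WT-SD, library size alone gave -0.008 for Klf3 and -0.005 for Klf15, and leaving out a library gave -0.045 to 0.254 for Klf15. In KO-TGF against WT-TGF it gave -0.076 for Klf3, and leaving out a library gave -0.042 to 0.006 for Klf7. The interaction of Klf3 was 0.006 with DESeq2 and with its size factors, 0.004 with GC correction and -0.04 to 0.031 with a library left out. The KO response of Klf9 was -0.077 to 0.042 with a library left out. The causes were not tested. In all, 988 values kept direction and side of the threshold, 13 lost their call, 17 gained one and 15 reversed.

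Deviations of same-numbered libraries of different groups had correlations of -0.033 to 0.147, above 0.1 in 1 of 18 pairs. Sampling noise of single genes keeps such correlations low, so they cannot decide whether the replicate numbers pair the samples. With the replicate block, 3 of 100 gene values changed, each together with GC correction: Klf3 in the interaction (0.004), Klf7 in KO-SD (-0.135) and Klf2 in KO-TGF (0.242), and the last 2 gained a call. Depth limits Klf15 and Klf5, which have at most 55 and 156 counts in a library.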
